A study of Mus musculus with 7 samples.

Results

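The 10 genes described here encode factors that write, read or erase methylation of histone H3 at lysine 9 (H3K9) and that build heterochromatin. They were picked by name, out of 29267 genes in each deposited table, with no measured value in the rule. Earlier results of these data were known when the choice was made. Setdb1, Ehmt1, Ehmt2, Suv39h1 and Suv39h2 are H3K9 methyltransferases, Trim28 (KAP1) is the corepressor that brings Setdb1 to its targets, Cbx3 and Cbx5 encode heterochromatin protein 1 gamma and alpha (HP1), and Kdm3a and Kdm4c are H3K9 demethylases. All 10 had a TPM (reads per unit of transcript length, on a scale common to all libraries) of at least 1 in every library, so no member was lost to a filter on low values.

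RNA was measured in 7 bulk libraries, 1 for each group. OG2 mouse embryonic fibroblasts, which carry a GFP transgene under the regulatory region of Oct4 (GOF18 with the proximal enhancer deleted), were infected with retroviruses for Oct4, Sox2, Klf4 and c-Myc in serum-based mES medium or in the chemically defined 5C medium, both of which hold LIF and vitamin C. Cells were sorted by GFP at passage 0, which gave mES-Oct4GFP+ and mES-Oct4GFP- from the first medium and 5C-Oct4GFP+ and 5C-Oct4GFP- from the second. 5C-Oct4GFP+ cells moved to naive or primed medium gave the libraries 5C-Oct4GFP+ (naive) and 5C-Oct4GFP+ (primed), here also called naive-converted and primed-converted cells. Their labels say passage 20, and the study states that such converted cells were kept for 20 further passages and used for sequencing. Elsewhere the study gives a culture of days for cells of these names, so how long they had been in the new medium is not fully certain. R1 ESCs-primed, also labelled as passage 20, came from the R1 embryonic stem cell line, for which the labels name no transgene and no retrovirus. GFP reports the activity of 1 transgene, so a GFP- fraction can hold fibroblasts and partly reprogrammed cells together.

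H3K9 methylation marks silent chromatin. In repeats near centromeres the Suv39h enzymes add the trimethyl mark and HP1 proteins bind it, Setdb1 with Trim28 silences retroviruses and imprinted regions, and the dimer of Ehmt1 (GLP) and Ehmt2 (G9a) adds the dimethyl mark in gene-rich chromatin. The Jumonji demethylases Kdm3a and Kdm4c remove these marks and need iron, oxygen and 2-oxoglutarate, and vitamin C helps them. H3K9 methylation is known as a barrier between fibroblasts and pluripotent cells.

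The libraries held between 6108252 and 11496615 expected counts. Members ranged from 13.86 to 2040.98 TPM, and the least covered member in any library had 160.93 expected counts. With 1 library a group the spread between cultures is unknown, no p-value was computed, and the intervals given are 95% Poisson or Clopper-Pearson intervals that cover the counting of reads only. The 8 fibroblast markers summed to between 8.69 and 13.64 TPM in mES-Oct4GFP+, 5C-Oct4GFP+ and naive-converted cells, to 503.31 in mES-Oct4GFP- cells, 255.76 in 5C-Oct4GFP-, 75.64 in primed-converted cells and 214.93 in R1 ESCs-primed. Of them Twist2 was listed at 0 in mES-Oct4GFP+ and naive-converted cells. The 8 pluripotency markers summed to 119.51 and 452.68 TPM in mES-Oct4GFP- and 5C-Oct4GFP-, and to between 1260.35 and 7539.37 in the other 5. The medians lay closer, at 59.7 TPM in primed-converted cells and 45.2 in 5C-Oct4GFP-. Of the 8 markers 5 reached 1 TPM in primed-converted cells and 8 in 5C-Oct4GFP-. The 7 primed markers summed to 1570.73 TPM in primed-converted cells and 1693.82 in R1 ESCs-primed, against 221.09 in 5C-Oct4GFP- and 139.5 in mES-Oct4GFP-. Their sums were 638.18 TPM in 5C-Oct4GFP+, 145.78 in naive-converted cells and 105.65 in mES-Oct4GFP+. The 10 proliferation genes summed to 895.03 TPM in mES-Oct4GFP- cells, 2117.96 in 5C-Oct4GFP- and between 2660.28 and 2944.59 elsewhere. Their part in the differences given here was not tested.

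**Figure D1:**
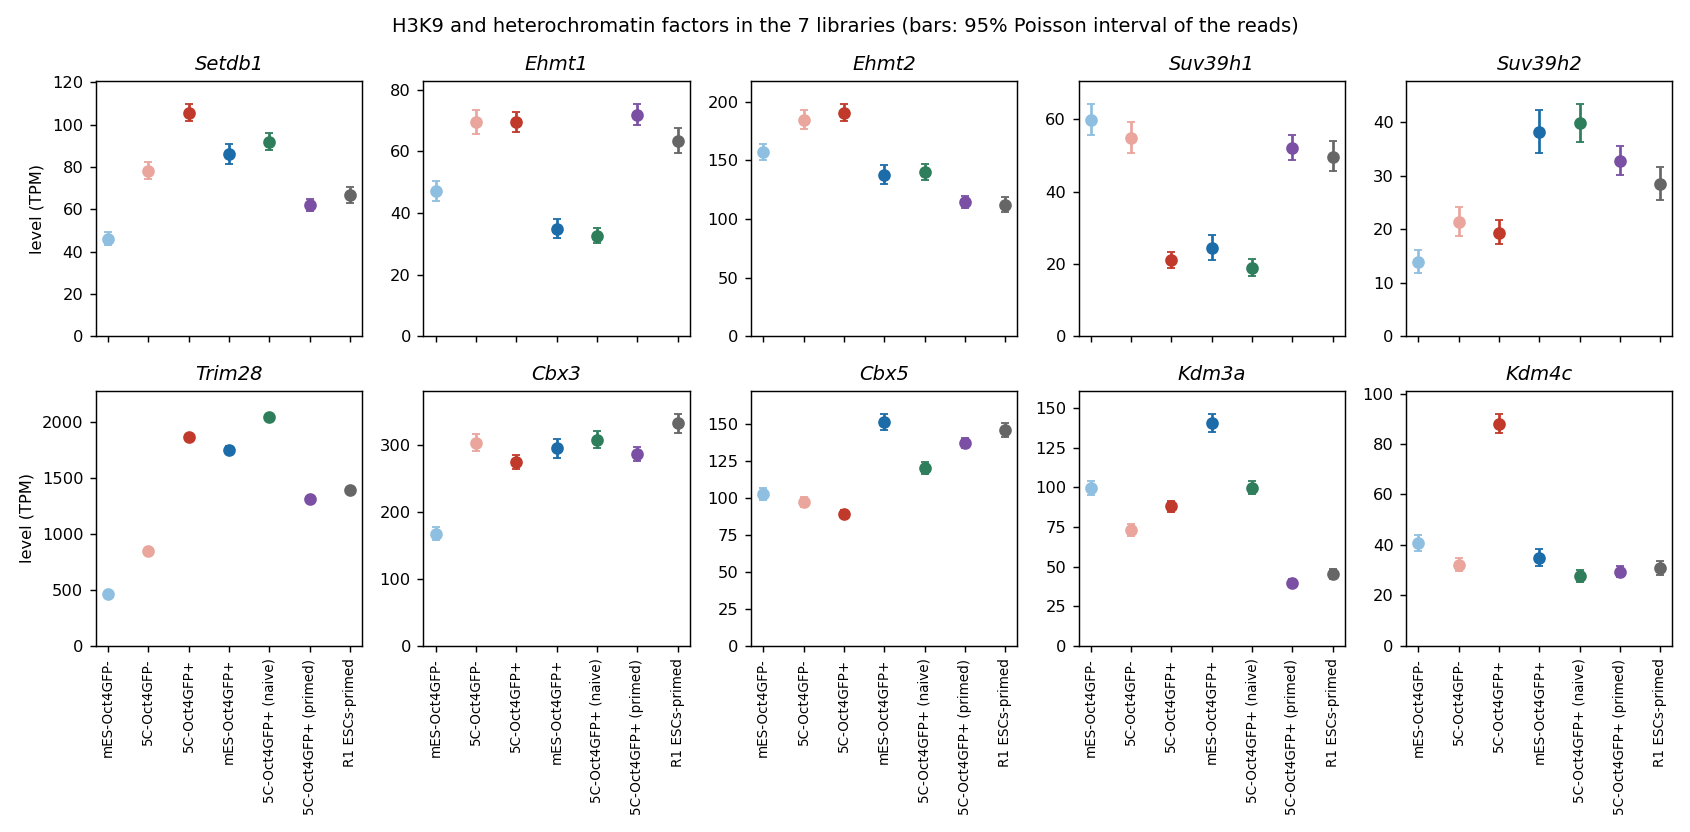
Level of each of the 10 genes in TPM (vertical axes start at 0) in the 7 libraries along the horizontal axis, with bars for the 95% Poisson interval of the reads. Suv39h1 falls into 4 high and 3 low libraries, Kdm4c stands at 88.08 TPM in 5C-Oct4GFP+ against at most 40.7 elsewhere, and Trim28 and Cbx3 are lowest in mES-Oct4GFP-.

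The 2 Suv39h genes, whose enzymes share the same activity, had different patterns. Suv39h1 (ENSMUSG00000039231, chrX:8061171-8074760, minus strand; all positions are on GRCm38) stood at 59.8 TPM in mES-Oct4GFP- cells, 54.78 in 5C-Oct4GFP- cells, 52.09 in primed-converted cells and 49.69 in R1 ESCs-primed. It stood at 24.43 TPM in mES-Oct4GFP+ cells, 20.96 in 5C-Oct4GFP+ cells and 18.92 in naive-converted cells. So the GFP- and primed libraries held the high level and the other 3 the low one. R1 ESCs-primed was 2.03-fold above mES-Oct4GFP+, the highest of the low set. Neighbours in rank within each set were not apart beyond counting error. The ends of a set could still be apart, as in the high set, at 59.8 (55.6 to 64.2) and 49.69 TPM (45.6 to 54.0). The TPM ratio of Oct4GFP+ to Oct4GFP- cells was 0.41 (0.35 to 0.48) in mES medium and 0.38 (0.33 to 0.44) in 5C medium. In bulk RNA, fewer cells of a type and less RNA per cell cannot be told apart.

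Suv39h2 (ENSMUSG00000026646, chr2:3455815-3475031, minus strand) stood at 39.82 TPM in naive-converted cells, 38.16 in mES-Oct4GFP+, 32.86 in primed-converted cells, 28.46 in R1 ESCs-primed, 21.38 in 5C-Oct4GFP-, 19.4 in 5C-Oct4GFP+ and 13.86 in mES-Oct4GFP-. Oct4GFP+ cells held 2.75-fold (2.27 to 3.33) more of it than Oct4GFP- cells in mES medium, and 0.91 times (0.77 to 1.08) as much in 5C medium. Among Oct4GFP+ cells the level in 5C medium was 0.51 times (0.44 to 0.60) that in mES medium, and it was 2.05-fold (1.77 to 2.37) higher in naive-converted cells than in 5C-Oct4GFP+. Within a library the ratio of Suv39h1 to Suv39h2 TPM thus ran from 4.31 (3.63 to 5.14) in mES-Oct4GFP- through 2.56 in 5C-Oct4GFP-, 1.75 in R1 ESCs-primed, 1.59 in primed-converted cells and 1.08 (0.92 to 1.27) in 5C-Oct4GFP+ to 0.64 in mES-Oct4GFP+ and 0.48 (0.41 to 0.56) in naive-converted cells. Both genes were low in 5C-Oct4GFP+, where their levels summed to 40.36 TPM against 58.74 to 84.95 in the other libraries.

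**Figure D2:**
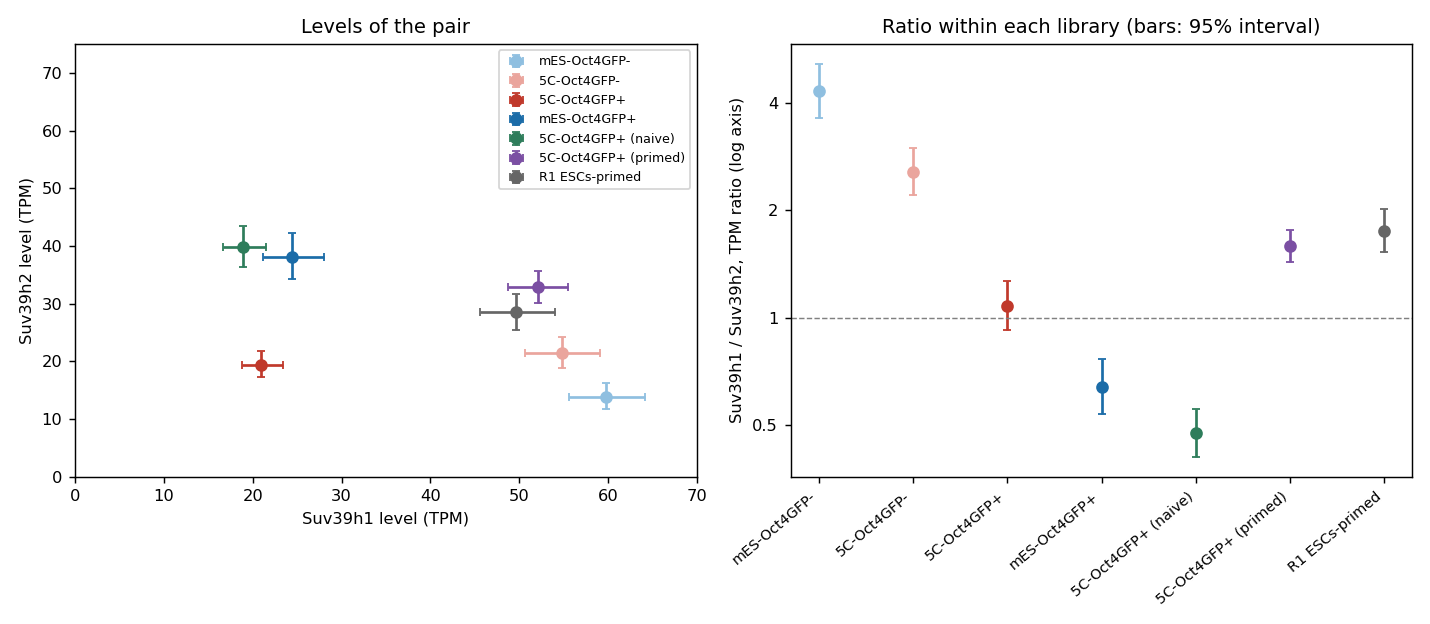
Left, Suv39h2 against Suv39h1 level in TPM, 1 point a library, with 95% Poisson intervals; right, the ratio of Suv39h1 to Suv39h2 TPM in each library on a log axis with its 95% interval, the dashed line at 1. The ratio is above 2 in both GFP- libraries and below 1 in mES-Oct4GFP+ and naive-converted cells, and 5C-Oct4GFP+ is the library with both genes low.

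The bases before the annotated starts of this pair are shown because the 2 genes share a function and differ in their pattern of levels. They come from RefSeq (GRCm38.p6), run 5′ to 3′ on the strand of the gene, and leave out every base in an annotated exon. Suv39h1 is chrX:8074761-8075010 and Suv39h2 is chr2:3475032-3475236, both on the minus strand. Capitals mark matches, on either strand, to the HIF1 core ACGTG or GCGTG, the E2F sites TTTCCCGC, TTTGGCGC or TTTCGCGC, or the SP1 box GGGCGG.
Suv39h1: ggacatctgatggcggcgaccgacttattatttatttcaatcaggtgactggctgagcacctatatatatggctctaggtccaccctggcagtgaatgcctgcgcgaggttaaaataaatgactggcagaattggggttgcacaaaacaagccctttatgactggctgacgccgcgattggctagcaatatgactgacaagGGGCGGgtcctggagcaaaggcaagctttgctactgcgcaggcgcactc
Suv39h2: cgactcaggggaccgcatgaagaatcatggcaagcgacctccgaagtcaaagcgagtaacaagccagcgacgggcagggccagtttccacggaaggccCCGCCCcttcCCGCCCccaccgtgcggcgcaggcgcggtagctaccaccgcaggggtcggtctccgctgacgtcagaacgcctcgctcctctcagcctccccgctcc
The Suv39h1 stretch had 1 SP1 box, the Suv39h2 stretch had 2, and neither held the other letters. RefSeq gave 17 windows of the same length for the 10 members, from before each start into the first exon. In these windows each of the 10 members had the HIF1 core at least once, and the same held for the SP1 box. Several members had more than 1 window, and the shares given below are of windows and not of genes. For this pair, the Suv39h2 window held 1 match and the window of another Suv39h1 start held 2. The SP1 box was in 14 of the 17 and in 35.7% of all 32851 windows in the table, the HIF1 core in 12 of the 17 and 43.8% of all, and an E2F site in 1 (of Cbx3) and 1.84% of all. A match describes letters only and is not a bound site.

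Setdb1 (ENSMUSG00000015697, chr3:95323525-95357202, minus strand) stood at 105.72 TPM in 5C-Oct4GFP+, 91.99 in naive-converted cells, 85.99 in mES-Oct4GFP+ cells, 78.15 in 5C-Oct4GFP-, 66.58 in R1 ESCs-primed, 62.06 in primed-converted cells and 46.06 in mES-Oct4GFP-. It was highest in the library of 5C-Oct4GFP+ cells and lowest in mES-Oct4GFP-, a range of 2.30-fold. Its ratio between the GFP- fractions of 5C and mES medium was 1.70 (1.56 to 1.84).

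Trim28 (ENSMUSG00000005566, chr7:12999114-13031035, plus strand) was the most abundant member in every library. Its level was 2040.98 TPM in naive-converted cells, 1865.42 in 5C-Oct4GFP+, 1748.63 in mES-Oct4GFP+, 1387.94 in R1 ESCs-primed, 1310.53 in primed-converted cells, 845.49 in 5C-Oct4GFP- and 463.01 in mES-Oct4GFP-. The GFP- fractions were the lowest, the primed libraries in between, and the remaining 3 the highest. mES-Oct4GFP+ cells held 3.78-fold (3.64 to 3.92) more than mES-Oct4GFP- cells, 5C-Oct4GFP+ cells 2.21-fold (2.15 to 2.27) more than 5C-Oct4GFP- cells, and 5C-Oct4GFP- cells 1.83-fold (1.76 to 1.90) more than mES-Oct4GFP- cells. For each TPM of Setdb1 there were 10.1 of Trim28 in mES-Oct4GFP- cells and 10.8 in 5C-Oct4GFP-, against 17.6 to 22.2 in the 5 other libraries.

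Ehmt1 (ENSMUSG00000036893, chr2:24789928-24919614, minus strand) stood at 71.92 TPM in primed-converted cells, 69.55 in 5C-Oct4GFP+, 69.47 in 5C-Oct4GFP-, 63.48 in R1 ESCs-primed, 46.99 in mES-Oct4GFP-, 34.96 in mES-Oct4GFP+ and 32.57 in naive-converted cells. Both 5C fractions and both primed libraries formed the high end, with a ratio of 1.00 between 5C-Oct4GFP+ and 5C-Oct4GFP- cells. Among Oct4GFP+ cells the ratio of 5C to mES medium was 1.99 (1.80 to 2.20), and naive-converted cells held 0.47 times (0.43 to 0.51) the level of 5C-Oct4GFP+ cells. Its partner Ehmt2 (ENSMUSG00000013787, chr17:34898469-34914052, plus strand) was the more abundant of the dimer in every library. It ranged from 112.14 TPM in R1 ESCs-primed and 114.18 in primed-converted cells to 184.66 in 5C-Oct4GFP- and 190.75 in 5C-Oct4GFP+. The primed libraries, high in Ehmt1, were thus the lowest in Ehmt2, and the ratio of Ehmt2 to Ehmt1 TPM was 1.59 and 1.77 in them, 2.66 to 2.74 in the 5C fractions and 3.34 to 4.30 in the other 3.

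Of the HP1 genes, Cbx3 (ENSMUSG00000029836, chr6:51470360-51483704, plus strand) stood at 167.37 TPM in mES-Oct4GFP- and between 274.44 and 331.63 in the other 6 libraries. The mES-Oct4GFP- library was the lowest, with 5C-Oct4GFP+ cells, the next, 1.64-fold above it. The ratio of 5C-Oct4GFP- to mES-Oct4GFP- cells was 1.81 (1.69 to 1.94). GENCODE M21 names 8 pseudogenes of Cbx3, of which 0 are rows of the deposited tables, so reads from such copies cannot be told apart from those of Cbx3.

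Cbx5 (ENSMUSG00000009575, chr15:103191544-103239816, minus strand) stood at 151.38 TPM in mES-Oct4GFP+, 145.97 in R1 ESCs-primed, 137.11 in primed-converted cells, 120.36 in naive-converted cells, 102.59 in mES-Oct4GFP- cells, 97.33 in 5C-Oct4GFP- cells and 89.03 in 5C-Oct4GFP+. Among Oct4GFP+ cells the ratio of 5C to mES medium was 0.59 (0.56 to 0.62), a log2 difference of -0.76. The deposited effective length of Cbx5 differed by 39.3% between libraries, from 5381 bases in mES-Oct4GFP- to 7496 in 5C-Oct4GFP+, and on CPM, which leaves the length out, the log2 difference was -0.39, short of the 1.5-fold used here. Cbx1, the gene of HP1 beta and no member, ran from 81.02 TPM in mES-Oct4GFP- to 234 in 5C-Oct4GFP+. The 3 genes summed to 350.98 TPM in mES-Oct4GFP- cells, 530.61 in 5C-Oct4GFP- and 597.47 to 660.8 in the others. Within that sum Cbx5 made up 14.9% in 5C-Oct4GFP+ and 29.2% in mES-Oct4GFP-, and Cbx1 39.2% and 23.1%. These shares depend on the deposited lengths, and the 2 libraries are those with the longest and shortest for Cbx5. On CPM the order of Cbx5 was reversed, at 364.8 in 5C-Oct4GFP+ and 276.1 in mES-Oct4GFP-.

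**Figure D3:**
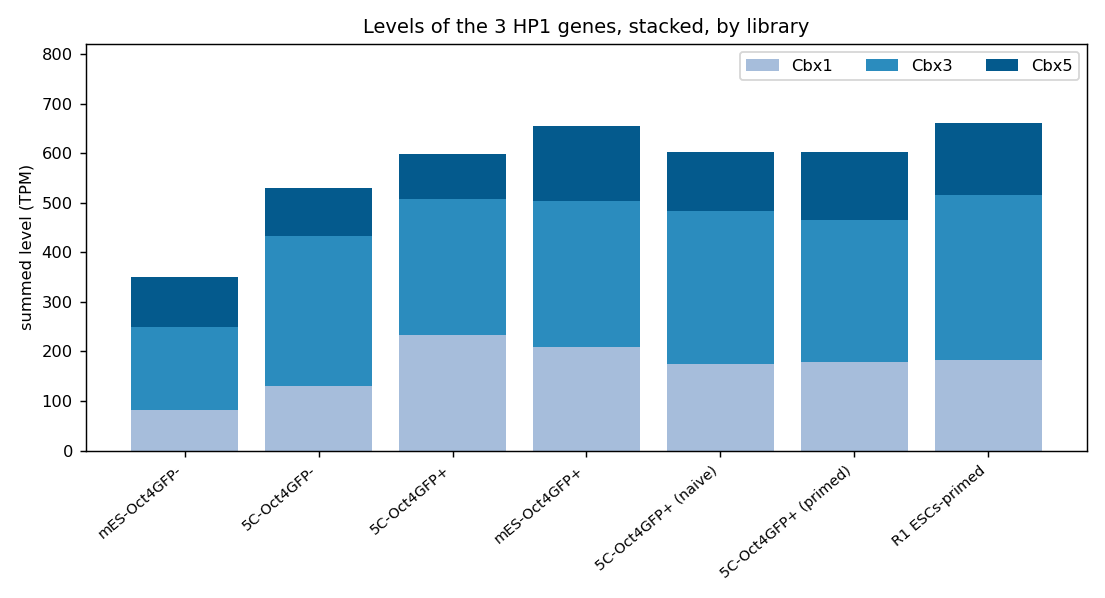
Stacked bars of the TPM of Cbx1, Cbx3 and Cbx5 in each library, on an axis from 0. The total is lowest in mES-Oct4GFP- (350.98 TPM), and the Cbx5 share of TPM is smallest in 5C-Oct4GFP+ (14.9%), where its deposited effective length is longest.

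Kdm4c (ENSMUSG00000028397, chr4:74242497-74405860, plus strand), which removes the trimethyl and dimethyl marks, stood apart in 1 library. It was at 88.08 TPM (84.3 to 92.0) in 5C-Oct4GFP+, from 2045 expected counts, and at 40.7 in mES-Oct4GFP- cells, 34.86 in mES-Oct4GFP+ cells, 32.22 in 5C-Oct4GFP-, 30.8 in R1 ESCs-primed, 29.23 in primed-converted cells and 27.6 in naive-converted cells. The 5C-Oct4GFP+ library was 2.16-fold above the next highest, while the lowest 5 followed each other without a gap beyond counting error. The ends of these 5 had separate intervals, 31.7 to 38.2 TPM in mES-Oct4GFP+ and 25.3 to 30.1 in naive-converted cells. The Kdm4c ratio of 5C-Oct4GFP+ cells to mES-Oct4GFP+ cells was 2.53 (2.28 to 2.80), and to 5C-Oct4GFP- cells 2.73 (2.49 to 3.01). Cells moved from 5C medium held 0.31 times (0.28 to 0.34) the level in naive medium and 0.33 times (0.30 to 0.36) in primed medium. Being at least 1.5-fold above each of the 6 other libraries held for 389 genes, 2.19% of the 17733 with at least 1 TPM in any library, and for 1 member, Kdm4c. Its effective length was 4066 bases in 5C-Oct4GFP+ and 3864 to 4123 in the others.

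RefSeq lists 2 starts for Kdm4c. The bases before each are shown, as for the Suv39h genes, because this gene stood apart in 1 library, the first being chr4:74242247-74242496 and the second chr4:74251715-74251878, both on the plus strand.
Kdm4c, first start: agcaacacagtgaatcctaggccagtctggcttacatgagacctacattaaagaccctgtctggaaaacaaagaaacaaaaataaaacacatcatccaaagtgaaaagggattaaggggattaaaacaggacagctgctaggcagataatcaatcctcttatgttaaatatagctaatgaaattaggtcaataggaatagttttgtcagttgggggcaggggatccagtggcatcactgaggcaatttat
Kdm4c, second start: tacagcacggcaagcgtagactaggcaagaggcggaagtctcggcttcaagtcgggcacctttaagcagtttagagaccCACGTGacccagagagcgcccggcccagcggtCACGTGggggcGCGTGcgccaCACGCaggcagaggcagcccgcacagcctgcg
The first held none of the letters searched and the second held 6 matches to the HIF1 core, among them both strands of a 6-base palindrome at 2 places. The antisense gene A230083N12Rik (chr4:74250324-74251714, minus strand) starts directly before the second stretch, head to head with it, and lies inside the longer Kdm4c transcript. It was at 3.7 TPM in 5C-Oct4GFP+, 3.1 in 5C-Oct4GFP-, 1.05 in mES-Oct4GFP- cells and between 0.32 and 0.76 in the other 4 libraries. Of the 10 genes within 2 Mb of Kdm4c with at least 1 TPM in any library, 5 were listed at 0 in 5C-Oct4GFP+, and A230083N12Rik was the 1 gene that lay 1.5-fold above its median over the other libraries there. It was named after its values were seen. The library kit does not mark strand, so reads of this gene and of Kdm4c cannot be told apart where they overlap. The 10 HIF1 target genes summed to 2339.58 TPM in 5C-Oct4GFP+, 2493.74 TPM in 5C-Oct4GFP-, 8305.51 in mES-Oct4GFP- cells, 675.46 in mES-Oct4GFP+ cells, 762.32 in naive-converted cells, 4967.43 in primed-converted cells and 4106.82 in R1 ESCs-primed. A few abundant genes carry these sums, and the medians over the 10 genes had another order. The GFP- fractions held the highest medians, 466.2 TPM with mES medium and 105.4 with 5C medium. The 5C-Oct4GFP+ library followed at 91.82 TPM, above primed-converted cells (53.67) and R1 ESCs-primed (46.74). The lowest medians were those of mES-Oct4GFP+ (26.13 TPM) and naive-converted cells (11.8 TPM). The part of the HIF1 target genes in the level of Kdm4c was not tested.

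Kdm3a (ENSMUSG00000053470, chr6:71588972-71632990, minus strand), which removes the monomethyl and dimethyl marks, stood at 140.31 TPM in mES-Oct4GFP+, 99.67 in naive-converted cells, 99.26 in mES-Oct4GFP- cells, 88 in 5C-Oct4GFP+ cells, 72.83 in 5C-Oct4GFP-, 45.07 in R1 ESCs-primed and 39.79 in primed-converted cells. The primed libraries were the lowest, 5C-Oct4GFP- being 1.62-fold above R1 ESCs-primed. Naive-converted cells held 2.50-fold (2.33 to 2.69) more than primed-converted cells. The ratio of 5C to mES medium was 0.63 (0.59 to 0.66) in Oct4GFP+ cells and 0.73 (0.69 to 0.78) in Oct4GFP- cells, the second short of the 1.5-fold. Kdm3a is a known HIF1 target, and the part of HIF1 in its level was not tested. Kdm3a and Kdm4c therefore had a TPM ratio of 0.999 in 5C-Oct4GFP+ cells, 1.36 and 1.46 in the primed libraries and 2.26 to 4.02 in the other 4.

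Counts of members past 1.5-fold on log2(TPM + 1) follow, each beside the share of all genes past the same fold, taken over genes with at least 1 TPM in either library. Between the GFP- fractions, 4 of 10 members were higher in 5C medium (Setdb1, Suv39h2, Trim28 and Cbx3), against 19.9% of 15859 genes, and 0 were lower, against 19.1%. The median log2 difference was 0.39 for the members and 0.03 for all genes. Setdb1, Ehmt1 and Trim28 are among the epigenetic factors that the study chose for being higher in this comparison, so their direction is not independent evidence. Ehmt1, at a ratio of 1.48 (1.35 to 1.61), fell just short of the fold, and Suv39h2, at 1.54 (1.26 to 1.89), passed it with an interval that reached below it. All 10 proliferation genes were higher in 5C-Oct4GFP- cells, 9 of 10 HIF1 targets were lower and 1 higher, and 6 of 8 fibroblast markers were lower and 1, Thy1, higher, and their part in these differences was not tested.

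Among Oct4GFP+ cells, Ehmt1 and Kdm4c were higher in 5C than in mES medium, 2 of 10 members against 21.9% of 15196 genes. Suv39h2, Cbx5 and Kdm3a were lower, 3 of 10 against 24.5%. These shares lie near the background, and the medians were -0.00424 for the members and -0.06 for all genes. Of the HIF1 targets 8 of 9 were higher in 5C-Oct4GFP+ and of the proliferation genes 2 of 10.

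Within mES medium 4 members were higher in Oct4GFP+ than in Oct4GFP- cells (Setdb1, Suv39h2, Trim28 and Cbx3), against 27.5% of 16294 genes, and Suv39h1 was lower, against 38.0%. Within 5C medium 2 were higher in Oct4GFP+ cells (Trim28 and Kdm4c), against 14.7% of 15675 genes, and Suv39h1 was lower, against 35.5%. Trim28 and Suv39h1 thus passed the fold in the same direction in both media. Both comparisons share libraries with those between media. Rescaling the libraries by median ratio moved all differences of Oct4GFP+ against Oct4GFP- cells up by about 0.15 on the log2 scale in mES medium and 0.23 in 5C medium. With it Setdb1 passed the fold in 5C medium (0.65, from 0.43) and Kdm3a and Cbx5 in mES medium (0.65 and 0.71, from 0.50 and 0.56). Kdm3a and Cbx5 also passed there with FPKM (0.61 and 0.67) and CPM (0.62 and 0.79), which made 6 members higher in mES-Oct4GFP+ cells.

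Against 5C-Oct4GFP+, the cells converted in naive medium had 1 member higher (Suv39h2), against 18.3% of 14863 genes, and 2 lower (Ehmt1 and Kdm4c), against 28.6%. The cells converted in primed medium had 3 higher (Suv39h1, 2.49-fold, Suv39h2, 1.69-fold, and Cbx5, 1.54-fold), against 24.2% of 15067 genes, and 4 lower (Setdb1, 0.59 times, Ehmt2, 0.60 times, Kdm3a, 0.45 times, and Kdm4c), against 24.3%. Kdm4c and Suv39h2 lay past the fold in the same direction in both conversions, which share the 5C-Oct4GFP+ library. Between the converted cells themselves, Trim28 and Kdm3a were higher in naive than in primed, 2 of 10 against 24.4% of 15249 genes, and Ehmt1 and Suv39h1 were lower, 2 of 10 against 32.6%. Setdb1, at 0.56 on the log2 scale, passed the fold there with FPKM (0.62), CPM (0.65) and rescaling (0.74). Rescaling moved differences up by about 0.12 in naive-converted against 5C-Oct4GFP+ cells and by about 0.18 in naive-converted against primed-converted cells. The shares of members in the conversions lie near the background.

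Between primed-converted cells and R1 ESCs-primed, which differ in origin, 0 of 10 members were past the fold in either direction, against 6.73% of 14600 genes higher and 11.1% lower. Member ratios ran from 0.86 for Cbx3 to 1.15 for Suv39h2. The fibroblast markers were lower in primed-converted cells, at 75.64 against 214.93 TPM in sum. Per the study's methods, R1 cells were brought to the primed state on fibroblast feeders and later kept on serum-coated plates. Any part of feeder RNA in these sums was not tested. A comparison added after seeing the data set naive-converted cells against mES-Oct4GFP+ cells, from different media and passages. Again 0 of 10 members were past the fold, against 6.10% of 14477 genes higher and 18.2% lower, and the TPM ratios ran from 0.71 (0.67 to 0.75) for Kdm3a to 1.17 for Trim28.

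**Figure D4:**
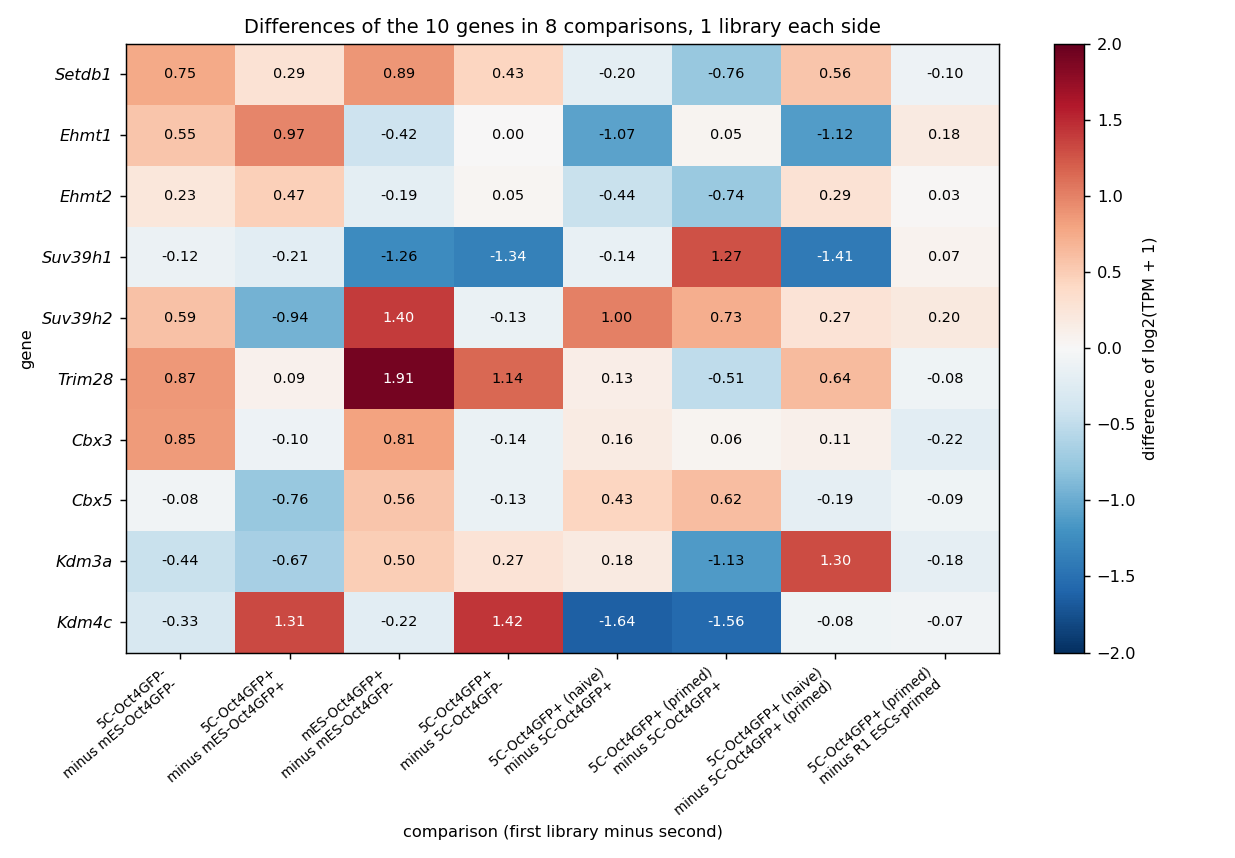
Differences of log2(TPM + 1) of the 10 genes (rows) in 8 comparisons of 1 library with 1 library (columns, first minus second), with the value printed in each cell, red for higher and blue for lower in the first library. The Kdm4c row is strong in the 4 columns that hold 5C-Oct4GFP+, and the last column, primed against R1 ESCs-primed, has no value past the fold.

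The other 40 genes of the pathway, from 7 named groups, were counted in the same way, with shares of all genes in the same direction as background. Between the GFP- fractions 9 of 38 (23.7%, near the 19.9% of all genes) were higher in 5C-Oct4GFP- and 2 (5.26%, against 19.1%) lower. The study chose Uhrf1, Cdyl and Kmt5c of this list for being higher here, so they are not independent evidence either. Uhrf1, which reads methylated H3K9 and DNA, was at 205.9 against 77.62 TPM (2.65-fold, 2.47 to 2.84), and the methyltransferase gene Mecom at 1.32 against 5.35. Among Oct4GFP+ cells 7 of 38 (18.4%, against 21.9%) were higher in 5C medium and 5 (13.2%, against 24.5%) lower, with the demethylase Kdm4b at 41.21 against 14.9 TPM (2.77-fold) and Atf7ip2, a relative of the Setdb1 partner Atf7ip, at 9.89 against 32.41.

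Oct4GFP+ cells had more pathway genes higher than lower than Oct4GFP- cells of the same medium, 17 (43.6%) and 7 (17.9%) of 39 in mES medium and 12 (30.8%) and 6 (15.4%) of 39 in 5C medium, against 27.5% and 38.0% and 14.7% and 35.5% of all genes. With rescaling 20 were higher and 4 lower in mES medium and 18 and 5 in 5C medium. Cdyl2, a chromodomain gene related to the Ehmt2 partner Cdyl, stood out, at 19.71 against 0.34 TPM in mES medium (58.0-fold, 32.9 to 112.9) and 15.23 against 0.41 in 5C medium (37.1-fold, 22.0 to 68.3). Atf7ip2 was at 32.41 against 3.49 TPM in mES medium, and the demethylase Phf2 at 6.69 against 33.56 in 5C medium. Of the 8 demethylase genes tested, 0 were higher in Oct4GFP+ cells in either medium and 5 and 3 were lower, against 38.0% and 35.5% of all genes lower, so the share in 5C medium was near the background. In mES medium the 5 lower became 3 (37.5%, near the background) with rescaling, FPKM or CPM. With rescaling or CPM, 1 was higher in each medium, Kdm1a in mES and Jmjd1c in 5C medium.

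Against 5C-Oct4GFP+, 3 of 38 pathway genes (7.89%, against 18.3%) were higher and 11 (28.9%, against 28.6%) lower in naive-converted cells. Jmjd1c, a relative of Kdm3a, was at 29.15 against 115.18 TPM there, and Prdm16, a methyltransferase gene, at 0.84 against 6.77. The effective length of Prdm16 was 8072 against 3754 bases, and its CPM 3.89 against 13.9. In primed-converted cells 4 of 39 (10.3%, against 24.2%) were higher and 14 (35.9%, against 24.3%) lower, with Cdyl2 at 1.61 against 15.23 TPM and Tasor, the core subunit of the HUSH silencing complex, at 5.9 against 38.82 (0.15 times, 0.13 to 0.17). R1 ESCs-primed also held little Tasor, at 8.01 TPM. Between naive and primed cells 12 of 38 (31.6%, against 24.4%) were higher and 7 (18.4%, against 32.6%) lower, with Cdyl2 11.2-fold higher and the HUSH subunit Pphln1 at 16.29 against 93.67 TPM. The HUSH genes Tasor and Pphln1 thus lay in opposite directions between these libraries. Between primed and R1 ESCs-primed cells 1 of 39 (2.56%, against 6.73%) was higher, the methyltransferase gene Setdb2 at 10.68 against 6.74 TPM. In the other direction 2 (5.13%, against 11.1%) were lower, the largest being Atf7ip at 25.03 against 42.11. The effective lengths of both named genes differed between these libraries. On CPM, which leaves the length out, Setdb2 was at 11.6 against 10.3 and Atf7ip at 99.3 against 100.4. With FPKM or CPM, 0 pathway genes were higher and 1 lower. Kdm4d was listed at no more than 0.44 TPM in any library.

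**Figure D5:**
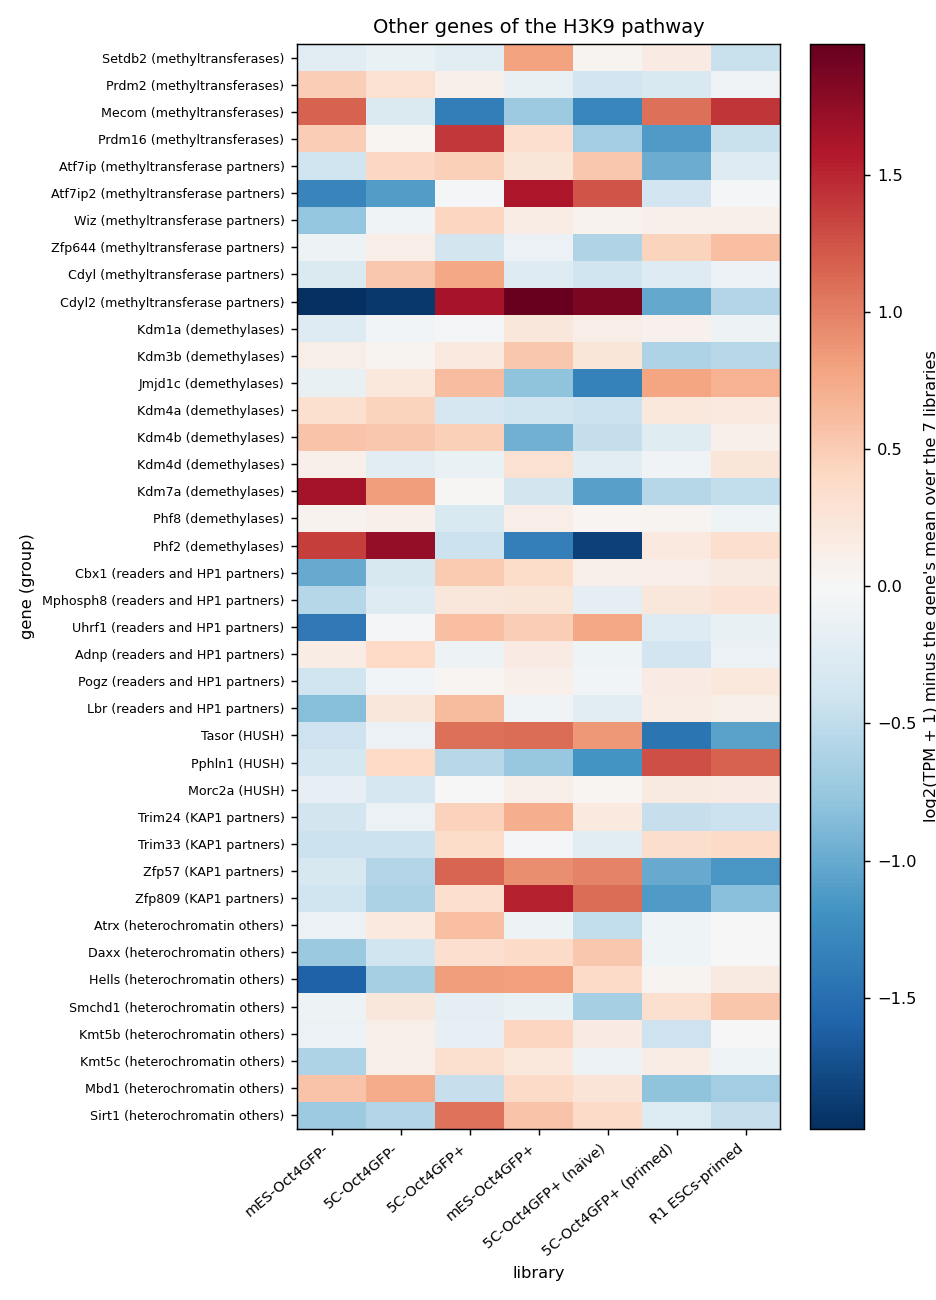
Heat map of 40 other pathway genes (rows, with their group) in the 7 libraries (columns), as log2(TPM + 1) minus the mean of the gene over the libraries, blue for low and red for high. Cdyl2 is low in the GFP- and primed libraries, and Tasor is lowest and Pphln1 highest in primed-converted cells.

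Over the 7 libraries, the genes with the pattern most like each member were found by Pearson's r of log2(TPM + 1) among 8418 genes with at least 5 TPM everywhere. They were Ngdn (0.998) and Pcgf6 (0.995) for Trim28, Homer1 (0.995) and Tbl1x (0.992) for Suv39h1, Cacnb1 (0.994) and Maf1 (0.988) for Ehmt2, Deaf1 (0.989) and Cdk17 (0.984) for Ehmt1, and Zbtb11 (0.989) and Kdm3b (0.985) for Kdm3a. Kdm3b is the closest relative of Kdm3a and was at 70.61 TPM in mES-Oct4GFP+ and 31.23 in primed-converted cells. For Setdb1 they were Chchd10 (0.988) and Parp1 (0.981), for Cbx3 Dek (0.985) and Taf1c (0.984), for Suv39h2 Kat14 (0.982) and Pop5 (0.980), and for Cbx5 Dffa (0.977) and Apip (0.975). For Kdm4c the value of Fnip2 was 0.958. With 7 points and so many genes searched, values of this size are a description of these libraries only. Among pairs of members r ran from -0.90 for Ehmt2 with Cbx5 to 0.83 for Setdb1 with Trim28.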

How the data were processed

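Unstranded TruSeq libraries were read on a MiSeq, and the authors ran Bowtie and RSEM on mm10 (GRCm38), in versions not given in the sources used here. Per the file headers, the deposited expected counts are the estimated reads of each Ensembl gene. The deposited TPM are the authors' counts per effective length on a common scale, and the deposited FPKM scale the same quantity to the fragments of the library. The depth was 6108252 to 11496615 expected counts a library.

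GENCODE M21 gave a symbol for 28756 of 29267 identifiers. Differences were taken on log2(TPM + 1), which understates those of low genes, among genes with at least 1 TPM in either library, and called at 1.5-fold. Ratios have exact Clopper-Pearson 95% intervals from counts rounded to whole numbers, which leave out the uncertainty of dividing reads among isoforms and copies. Scripts ran in Python 3.11.15 (scipy 1.17.1, pandas 2.3.3, numpy 2.4.6, matplotlib 3.10.9) and were tested on simulated data. No test was run, as each group had 1 library. In each comparison the text names the 2 pathway genes of at least 5 TPM with the largest differences, and Cbx1. For each member it names the 2 genes with the highest r, except that 1 of those for Kdm4c is not reported here. The members, lists and rules were chosen with earlier results of these data known. Alternatives were a pseudocount of 0.1, median-ratio rescaling, FPKM, CPM and a minimum of 10 TPM.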

Additional observations from a re-analysis of the deposited data

Results flagged for a closer look

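For 4 members a difference had opposite signs in the 2 media or the 2 fractions, with the counting intervals of both ratios away from 1. The log2 difference of Oct4GFP+ against Oct4GFP- cells also changed sign between media for 3 members without meeting that condition. They were Ehmt1 (-0.42 in mES and 0.00 in 5C medium), Ehmt2 (-0.19 and 0.05) and Suv39h2 (1.40 and -0.13). These differences were not tested, since each rests on 4 libraries without replicates. For Kdm4c the log2 difference of Oct4GFP+ against Oct4GFP- cells was -0.22 in mES and 1.42 in 5C medium. That of 5C against mES medium was -0.33 in Oct4GFP- and 1.31 in Oct4GFP+ cells. The gap, 1.64, is the same in both readings by arithmetic, since they use the same 4 libraries. With rescaling the value of Kdm4c in mES medium was -0.07. For Cbx3 the log2 difference of Oct4GFP+ against Oct4GFP- cells was 0.81 in mES and -0.14 in 5C medium. That of 5C against mES medium was 0.85 in Oct4GFP- and -0.10 in Oct4GFP+ cells, with the gap of -0.95 again the same by arithmetic. For Cbx5 the log2 difference of Oct4GFP+ against Oct4GFP- cells was 0.56 in mES and -0.13 in 5C medium, -0.68 apart. With rescaling the 5C values of Cbx3 and Cbx5 were 0.09 and 0.10 and so had the sign of the mES values, as had Cbx5 with CPM (0.11). For Suv39h2 that of 5C against mES medium was 0.59 in Oct4GFP- and -0.94 in Oct4GFP+ cells, -1.53 apart. For Cbx3 mES-Oct4GFP- was the lowest library of the 7, and for Kdm4c 5C-Oct4GFP+ was the highest.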

How the results depend on the processing

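The counts of members past the fold stayed within 1.5 times of the reported ones in each comparison under a pseudocount of 0.1, FPKM, median-ratio rescaling and CPM. Of the 80 member differences, 80 kept their side of 1.5-fold with the pseudocount of 0.1, 77 with FPKM, 74 with median-ratio rescaling and 72 with CPM. Cbx5 in 5C-Oct4GFP+ (primed) against 5C-Oct4GFP+ went from 0.62 to 0.55 with rescaling and 0.49 with CPM, Suv39h2 between the GFP- fractions from 0.59 to 0.57 with rescaling, and Ehmt1 there from 0.55 to 0.75 with CPM. The cause was not tested. The share of all genes past the fold was 6.73% to 38.0% in one direction, and 4.05% to 35.3% at a minimum of 10 TPM. No paired analysis was possible because each group has 1 library with no replicate number.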

Other observations

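Suv39h1 is the 1 member on the X chromosome. In naive against primed cells the median log2 difference was -0.18 over 588 X-linked genes and -0.15 over 14520 autosomal genes, beside -1.41 for Suv39h1. In mES-Oct4GFP+ against mES-Oct4GFP- cells these values were -0.15, -0.16 and -1.26.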
